A study of Homo sapiens with 32 samples.

Results

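Inflammasomes are cytosolic protein assemblies that turn the detection of microbial or cellular danger signals into inflammatory cell death. The 9 genes described here encode parts of that machinery: the adaptor PYCARD (ASC), the sensors NLRP1, NLRP3 and AIM2, the inflammatory caspases CASP1, CASP4 and CASP5, the decoy CARD16 and the pore-forming gasdermin GSDMD. They were chosen by name, as the rows of the deposited count table that carry these symbols, and they are 9 of its 60332 rows, with 1 row per symbol. The set was drawn up with the levels of PYCARD across the cell lines already known, so PYCARD is described between lines with no test.

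RNA was measured in 32 libraries, 2 for each of 16 groups, from 2 immortalised human epithelial lines: MCF10A, a non-transformed breast line, and hTERT RPE-1, a retinal pigment epithelial line carrying telomerase. The series text sets out 3 experiments on inflammatory signalling after ionising radiation (IR, 10 Gy), and their groups are called here the first MCF10A set, the second MCF10A set and the RPE-1 set. The first set held wild-type (WT) cells left untreated, WT cells 3 or 5 days after IR with the solvent DMSO, WT cells 5 days after IR with a CDK1 inhibitor (CDK1i), and cGAS, STING and XRCC4 knockout (KO) cells 5 days after IR. The second set held WT, p53 KO, XRCC4 KO and XRCC4 p53 double-knockout (DKO) cells 3 days after IR, and the XRCC4 KO and DKO cells also with an ATR inhibitor (ATRi). In the RPE-1 set every group received IR and ATRi and was collected after 3 days: WT cells, p53 KO cells and cells labelled WT cGAS. Drugs were added 1 h before IR and kept on. In the first set the sample titles name DMSO only for the WT cells at 3 and 5 days. A possible difference in solvent can therefore not be told apart from IR or genotype in that set. The knockout cells were grown from single cells after lentiviral CRISPR-Cas9 editing, so each stands for a clone, and no knockout cells without IR were included. Nothing in the labels tells whether both libraries of a group stem from independent cultures. The p-values therefore measure the spread between these libraries, which may be technical.

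In a canonical inflammasome, a sensor such as NLRP3, which responds to cell stress and ion fluxes, or AIM2, which binds cytosolic double-stranded DNA, recruits PYCARD through a pyrin domain. PYCARD polymerises and gathers pro-caspase-1 through its CARD domain. Active caspase-1 matures the cytokines IL-1β and IL-18 and cleaves gasdermin D, whose freed part forms pores in the plasma membrane (pyroptosis). CASP4 and CASP5 bind bacterial lipopolysaccharide themselves and cleave gasdermin D without PYCARD, and NLRP1, a sensor that is prominent in human epithelia, carries its own CARD. Several of these genes are induced by interferons, which cGAS and STING elicit after sensing DNA.

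PYCARD differed most between the MCF10A lines and is a gene whose CpG-rich start is known to be silenced in some tumours. AIM2 is a known interferon-inducible gene that had counts in WT cells 5 days after IR and none in the cGAS, STING and XRCC4 KO cells of the same set. The RefSeq promoter windows of both (GRCh38.p14, 250 bases before to 50 bases after the gene start, 5′ to 3′ on the gene's strand) are shown for these reasons. RefSeq windows were matched for 5 of the 9 genes (PYCARD, NLRP3, AIM2, CASP4 and CASP5). Capitals mark CpG dinucleotides in PYCARD (chr16:31202711-31203010, minus strand) and an interferon-response core in AIM2 (chr1:159076717-159077016, minus strand).
PYCARD: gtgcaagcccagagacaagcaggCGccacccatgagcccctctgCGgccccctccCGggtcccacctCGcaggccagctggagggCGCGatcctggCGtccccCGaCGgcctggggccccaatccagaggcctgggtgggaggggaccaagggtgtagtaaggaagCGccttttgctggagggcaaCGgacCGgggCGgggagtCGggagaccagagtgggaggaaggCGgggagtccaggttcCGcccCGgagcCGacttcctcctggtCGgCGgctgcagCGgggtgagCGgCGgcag
AIM2: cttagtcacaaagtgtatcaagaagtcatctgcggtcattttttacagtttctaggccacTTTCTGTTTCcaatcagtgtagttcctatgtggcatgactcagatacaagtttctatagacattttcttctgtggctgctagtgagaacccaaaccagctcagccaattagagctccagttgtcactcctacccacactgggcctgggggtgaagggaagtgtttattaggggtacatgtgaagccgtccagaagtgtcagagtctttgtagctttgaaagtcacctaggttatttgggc
The PYCARD window held 23 CpG and 72% G and C. That is more CpG than 64.2% of the 35116 promoter windows of the same length, whose median was 14. An interferon-response core (GAAA, any 2 bases, GAAA, searched on both strands) is present in 3.57% of these windows, including 1 match in AIM2 and 2 overlapping matches in CASP5. A second motif, the gamma-activated site (TTCNNNGAA, both strands), is present in 7.66% of windows and once in CASP5. Neither motif is in the windows of PYCARD, NLRP3 or CASP4. A match is only these letters, and methylation and factor binding were not analysed here.

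The libraries held 5590061 to 18585999 counts in total. Replicate libraries differed by a mean chi-square per gene of 21.5 to 45.1 in the WT groups and 27.6 in the STING KO group of the first set, against at most 3.38 in all other groups. As a check of labels, the cGAS gene (listed as MB21D1) had 20 and 15 counts in cGAS KO cells against 251 and 254 in WT cells at 5 days, and the STING gene (listed as TMEM173) had 127 and 103 in STING KO cells against 1214 and 894. XRCC4 mRNA was not called changed in XRCC4 KO cells, so for that line the mRNA checks nothing. Of 10 basal breast markers, 10 had a median of at least 1 CPM in MCF10A and 6 in RPE-1, with summed medians of 16900 and 367.5 CPM. Of 4 general epithelial markers, 4 did in MCF10A and 2 in RPE-1, where EPCAM and CDH1 were at most 0.147 and 0.277 CPM. All 4 mesenchymal-type genes did in both lines. Medians of VIM were 450 CPM in MCF10A and 4341 CPM in RPE-1, and those of FN1 were 273 and 16510 CPM. Of 8 retinal pigment epithelial markers, 4 had a median of at least 1 CPM in RPE-1 and 2 in MCF10A, with summed medians of 47.2 and 13.7 CPM. The eye transcription factor gene OTX2 stood at 19.1 to 27.0 CPM in RPE-1 and at most 0.0673 CPM in MCF10A, whereas RPE65, TYR and RLBP1 had at most 1 count in any RPE-1 library. Of the leukocyte markers, PTPRC (CD45) stayed at or below 0.2715 CPM in MCF10A and 0.961 CPM in RPE-1, and MS4A1 had no count. Other markers of that list were read. CD68 stood at 16.1 to 114 CPM in MCF10A and 79.6 to 321 CPM in RPE-1. CD14 reached 80.7 CPM in MCF10A and 2.70 CPM in RPE-1, and CSF1R 20.95 and 2.84 CPM. The summed level of the 10 leukocyte markers was 29.4 to 143 CPM in MCF10A, where 4 had a median of at least 1 CPM, and 83.2 to 326.5 CPM in RPE-1, where 3 did; their part in the results was not tested. The 2 libraries of a group are called library 1 and library 2 by their replicate number. On log2(FPKM + 0.1), an alternative scale used below, the median difference of all genes moved by up to -0.27 and 0.39 from 0, depending on the comparison.

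PYCARD was present in some MCF10A lines and missing in others. PYCARD (ENSG00000103490, hg19 chr16:31212806-31214773) had between 31 and 213 counts in each of the 12 WT and p53 KO libraries of MCF10A. In the 14 libraries from cGAS KO, STING KO, XRCC4 KO and DKO cells it had 1 count in all, among 213615215 counts of all genes. All 6 RPE-1 libraries had 0 counts of 104514288, which allows a level of up to 0.0287 CPM. CPM values are library-size-scaled counts with TMM factors (edgeR), and such limits cover counting error only.

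In WT cells of the first set PYCARD stood at 3.84 and 3.26 CPM untreated, 7.66 and 5.34 CPM 3 days after IR, 6.395 and 6.129 CPM 5 days after IR, and 4.33 and 2.95 CPM with CDK1i. The second set had 12.3 and 12.2 CPM in WT cells and 5.78 and 4.47 CPM in p53 KO cells, both 3 days after IR. These groups do not overlap with any group of the other lines. The highest value outside them was 0.0886 CPM, from the single count in 1 cGAS KO library.

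Against a floor of 3 counts per group, PYCARD was at least 48.7-fold higher in WT than in STING KO cells at 5 days and at least 44.3-fold higher than in XRCC4 KO cells. The ratio to cGAS KO cells, which rests on that 1 count, was 169 (95% counting interval 29.9 to 6702). PYCARD was chosen for this difference, so the interval is no test of it and leaves out the spread between libraries and clones. A ratio to 1 count and bounds against a floor of 3 counts do not rank the knockouts. In the second set WT cells were at least 124-fold above XRCC4 KO cells, and p53 KO cells at least 62.5-fold above DKO cells. XRCC4 KO cells had 0 counts in both sets, at 3 and 5 days and with or without ATRi, so in that genotype the absence did not vary with time or drug. Whether it comes with the genotype or with the clone cannot be told apart here, since each knockout is 1 line.

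Within WT cells, where PYCARD was tested, no change passed the threshold (edgeR's quasi-likelihood test with Benjamini-Hochberg adjustment over all genes, adjusted p below 0.05, as for all tests below). PYCARD changed by 0.90 ± 0.38 (SE, log2) 3 days after IR (adjusted p = 0.186) and by 0.815 ± 0.37 5 days after IR (adjusted p = 0.135). With CDK1i it differed by -0.82 ± 0.37 from DMSO (adjusted p = 0.176). Within the MCF10A groups that had PYCARD, the order was WT of the second set, WT at 3 and at 5 days of the first set, p53 KO, CDK1i and untreated. Levels overlapped between the 3 day and 5 day groups of the first set and between the CDK1i and untreated groups. The p53 KO group also overlapped the 3 day group of the first set.

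**Figure D1:**
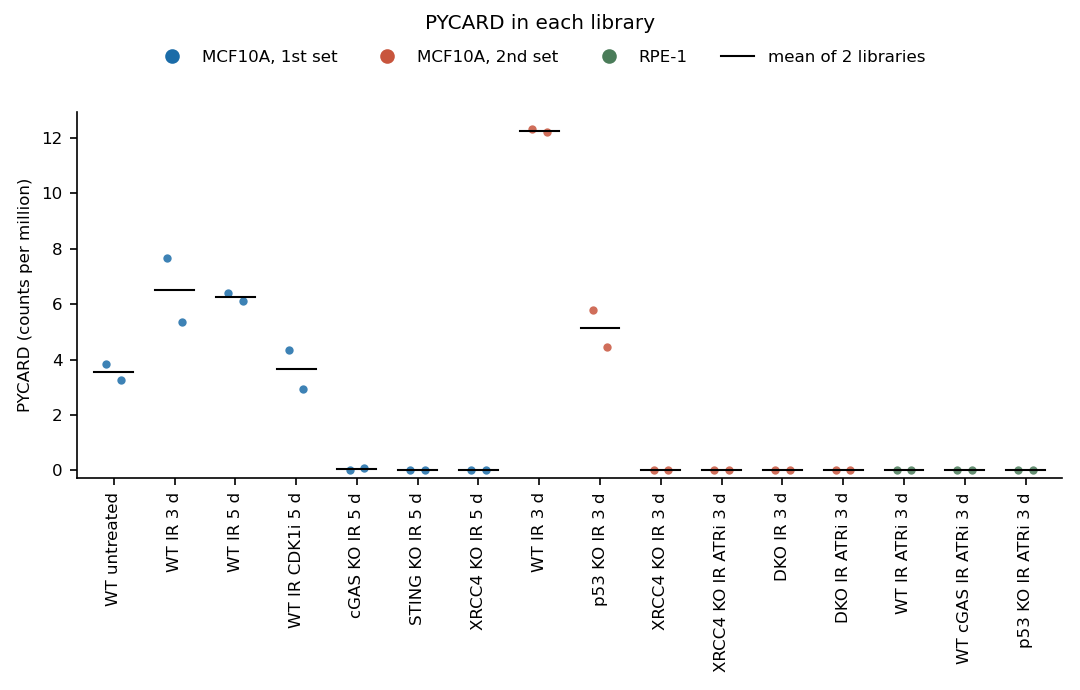
PYCARD in CPM (vertical axis) in each library (points) of the 16 groups (horizontal axis), with the mean of 2 libraries as a line. The WT and p53 KO groups of MCF10A lie between 2.95 and 12.3, and the other MCF10A lines and RPE-1 lie at or near 0.

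An antisense gene, PYCARD-AS1, overlaps PYCARD on the other strand across 3 of its exons, and the sources used here do not give whether counting used strand. PYCARD-AS1 had 35 counts in the 12 MCF10A libraries with PYCARD, 23 counts in the 14 without it, and 54 counts in the RPE-1 libraries, in each of which it was detected (4 to 19 counts). In RPE-1 the antisense gene was thus read where PYCARD was not. In the MCF10A libraries without PYCARD it lay near the floor, with 0 counts in 5 of the 14. Of the 23 counts, 10 came from 1 library of DKO cells with ATRi. The median was 0.0628 CPM there, against 0.199 CPM in the MCF10A libraries with PYCARD. Neighbours on both sides, KAT8 (14.5 to 32.7 against 11.6 to 28.5 CPM) and ARMC5 (7.65 to 15.4 against 7.47 to 15.0 CPM), were read in the MCF10A libraries with PYCARD and in those without it, in that order. These neighbours were chosen after the PYCARD values were seen.

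Other genes shared the pattern of PYCARD. Over the 13 MCF10A group means of log2 CPM and 14166 genes, the closest by Pearson's r were MAGEE1 (0.995), the glutamate transporter gene SLC1A1 (0.993), the zinc-finger gene ZNF880 (0.992), the pseudogene HSD17B7P2 (0.987) and AUTS2 (0.984). Group means of MAGEE1 ran from 1.06 to 4.68 CPM where PYCARD was present and were 0 in the other 7 groups. AUTS2 ran from 2.94 to 20.8 CPM and was at most 0.0453 CPM in the others. These correlations describe groups that share a few lines, and the genes were picked for their likeness.

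NLRP3 was the sensor that moved most. NLRP3 (ENSG00000162711, hg19 chr1:247579458-247612410) had 2 counts in each untreated library, 63 and 42 counts 3 days after IR and 199 and 130 counts 5 days after IR. These are 0.151 and 0.204 CPM untreated, 3.92 and 7.24 CPM at 3 days and 13.8 and 7.89 CPM at 5 days, with no overlap between untreated and irradiated cells. At 3 days NLRP3 rose by 4.89 ± 0.79 (SE, log2; adjusted p = 0.0109) and was the 1 of 7 tested members called, where 6.4% of all tested genes were called. Without untreated library 1 that p was 0.0611, and 0.117 when only the 4 libraries compared were fitted. The rise at 5 days was 5.89 ± 0.75 (adjusted p = 0.00095), and it was called under each alternative run.

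NLRP3 was not called different from WT in any of the 3 knockouts at 5 days. The cGAS KO libraries stood at 8.79 and 7.26 CPM, the STING KO libraries at 11.8 and 10.2 CPM and the XRCC4 KO libraries at 9.07 and 10.3 CPM. The differences from WT were -0.45 ± 0.48, 0.01 ± 0.47 and -0.185 ± 0.48 on the log2 scale, with adjusted p of 0.601, 0.995 and 0.81. With standard errors of this size a moderate difference would not have been detectable. IFIT1, an interferon-stimulated gene, was lower in STING KO and XRCC4 KO cells over the same libraries (-3.45 ± 0.89, adjusted p = 0.0332, and -4.15 ± 0.93, adjusted p = 0.0125), and it was not called in cGAS KO cells (-2.19 ± 0.845, adjusted p = 0.129). With CDK1i, NLRP3 differed by -1.16 ± 0.49 (adjusted p = 0.143, and 0.00419 without the filter on low counts), and its 2 libraries lay apart at 7.75 and 2.23 CPM.

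Loss of p53 came with more NLRP3 in MCF10A. In the second set WT cells had 5.25 and 5.44 CPM and p53 KO cells 10.2 and 10.6 CPM (0.94 ± 0.14, adjusted p = 6.45e-07). XRCC4 KO cells had 4.24 and 4.84 CPM and DKO cells 17.1 and 16.8 CPM (1.90 ± 0.135, adjusted p = 4.76e-14). The DKO level is the highest of the 16 groups, and both XRCC4 KO libraries lie far below it. CDKN1A, the p21 gene and a p53 target, was lower in the same comparisons (-3.27 ± 0.04 in p53 KO and -3.37 ± 0.04 in DKO cells), as background for the p53 status.

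ATRi lowered NLRP3 in both genotypes. In XRCC4 KO cells it stood at 3.16 and 3.08 CPM with ATRi (-0.55 ± 0.17, adjusted p = 0.0253), a call that was lost without 3 of the 4 libraries in turn and with DESeq2 (adjusted p = 0.167). In DKO cells it stood at 7.07 and 8.27 CPM with ATRi (-1.14 ± 0.12, adjusted p = 7.49e-10). The fall was larger in DKO cells by -0.59 ± 0.21 (adjusted p = 0.0301), and DESeq2 did not call that difference (adjusted p = 0.201). In RPE-1, NLRP3 had 4 to 12 counts per library, below the filter on low counts, so it was not tested.

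The 5 genes closest to NLRP3 over the 13 MCF10A group means were PDCD4-AS1 (r = 0.909), the pseudogene TMSB4XP6 (0.902), the serpin gene SERPINB2 (0.894), the chaperone partner gene BAG3 (0.877) and SFTA1P (0.872). SERPINB2 ran from 0.846 to 508 CPM across these groups.

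NLRP1 took another course than NLRP3. NLRP1 (ENSG00000091592, hg19 chr17:5402747-5522744) was read in each library, at 7.62 to 45.9 CPM in MCF10A and 27.5 to 39.0 CPM in RPE-1. In WT cells of the first set it had 31.0 and 17.7 CPM untreated, 38.8 and 25.7 CPM at 3 days and 20.6 and 26.6 CPM at 5 days. Those groups overlap, and neither change with IR was called (0.43 ± 0.28, adjusted p = 0.383, and -0.05 ± 0.28, adjusted p = 0.922). CDK1i took NLRP1 to 7.62 and 10.2 CPM, the lowest of the 16 groups.

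NLRP1 fell by 1.46 ± 0.29 on the log2 scale with CDK1i (adjusted p = 0.014). With 1 library left out the adjusted p reached 0.0721 without DMSO library 2, 0.0514 without CDK1i library 1 and 0.055 without CDK1i library 2, and it was 0.144 over the compared libraries alone and 0.229 on log2(FPKM + 0.1). In the second set NLRP1 went the opposite way to NLRP3 with p53. WT cells had 28.8 and 34.0 CPM, p53 KO cells 14.1 and 13.4 CPM (-1.21 ± 0.095, adjusted p = 1.34e-12), XRCC4 KO cells 43.1 and 45.9 CPM and DKO cells 18.4 and 21.8 CPM (-1.15 ± 0.09 against XRCC4 KO, adjusted p = 2.2e-13).

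XRCC4 KO cells had more NLRP1 than WT at 3 days (0.51 ± 0.08, adjusted p = 2.85e-06). On log2(FPKM + 0.1), the deposited length-scaled values, that difference was 0.25 (adjusted p = 0.369). ATRi shifted NLRP1 by -0.235 ± 0.08 in XRCC4 KO cells (adjusted p = 0.0381), which DESeq2 did not call (adjusted p = 0.223), and by 0.01 ± 0.09 in DKO cells (adjusted p = 0.944). In RPE-1 p53 KO cells NLRP1 was lower by -0.30 ± 0.07 (35.6 and 34.8 against 27.5 and 28.1 CPM, adjusted p = 0.000786). That direction turned on the FPKM scale (0.095, adjusted p = 0.474), on which the median of all genes in this comparison sits at 0.39.

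AIM2 was scarce everywhere. AIM2 (ENSG00000163568, hg19 chr1:159032274-159116886) had 102 counts over the 32 libraries. It had 0 counts in both untreated libraries, 1 and 1 counts at 3 days and 25 and 6 counts at 5 days. With CDK1i and in the cGAS KO, STING KO and XRCC4 KO cells at 5 days it had 0 counts in all 8 libraries. In the second set it had 1 to 12 counts per library, and in RPE-1 0 to 5. The mean level was highest in WT cells at 5 days through library 1, at 1.74 CPM, while library 2, at 0.364 CPM, lay among the libraries of the second set.

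Against the floor of 3 counts per group, AIM2 at 5 days was at least 7.73-fold higher than in untreated cells. It was at least 9.75-fold higher than with CDK1i, and at least 9.04-fold, 7.83-fold and 7.12-fold higher than in cGAS KO, STING KO and XRCC4 KO cells. From library 2 alone these 5 bounds were at least 2.8-fold, 3.53-fold, 3.28-fold, 2.84-fold and 2.58-fold, so library 1 sets their size. AIM2 did not pass the filter on low counts and was not tested where the filter was used. Library 1 was also the higher in IFIT1 (16555 against 4700 counts), and its part in the AIM2 values was not tested.

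CASP1, the effector protease of canonical inflammasomes, rose at 5 days after IR. CASP1 (ENSG00000137752, hg19 chr11:104896170-104905977) had 18.1 and 22.4 CPM untreated, 29 and 18.95 CPM at 3 days and 62.1 and 40.3 CPM at 5 days. The 3 day and untreated libraries overlap (0.28 ± 0.29, adjusted p = 0.607). The 5 day libraries lie above both, and the rise was 1.34 ± 0.29 (adjusted p = 0.00857).

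CASP1 was 1 of 4 tested members of 7 called at 5 days (NLRP3, CASP1 and CARD16 higher, CASP4 lower), where 27.9% of all tested genes were called. The adjusted p of CASP1 was 0.0559 without untreated library 1, 0.0714 without irradiated library 1 and 0.0502 over the compared libraries alone. The calls of CASP4 and CARD16 were also lost on log2(FPKM + 0.1) (adjusted p of 0.0981 and 0.0643) and over the compared libraries alone (0.116 and 0.159). With irradiated library 1 left out, 1451 genes were called in place of 4236, and 1 of the 7 members. The first irradiated library, which has the highest IFIT1 of the set, was also the highest in CASP1, CARD16 and AIM2, and the part of IFIT1 in these values was not tested.

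At 5 days cGAS KO cells had less CASP1 than WT. They stood at 25.3 and 25.8 CPM, a difference of -1.015 ± 0.28 on the log2 scale (adjusted p = 0.0434). CASP1 and CARD16 were the 2 of 6 tested members called in cGAS KO cells, with 12.5% of all genes called. Both calls were lost without WT library 1 and without either cGAS KO library (CASP1 adjusted p of 0.264, 0.219 and 0.2), and on the FPKM scale (0.0848 for CASP1 and 0.0646 for CARD16). STING KO cells had 33.3 and 38.0 CPM (-0.53 ± 0.28, adjusted p = 0.244) and XRCC4 KO cells 34.6 and 38.3 CPM (-0.51 ± 0.28, adjusted p = 0.216).

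No member of 6 was called by edgeR in STING KO or in XRCC4 KO cells at 5 days, with 14.2% and 24% of all genes called. In each of these comparisons 3 members had an unadjusted p under 0.05 and DESeq2 called 0. These counts depend on the filter on low counts. Without it edgeR called AIM2, NLRP1 (adjusted p = 0.0173), CASP1 (0.0379) and CARD16 (0.0272) in STING KO cells, and AIM2, CASP1 (0.0327), GSDMD (0.00255) and CARD16 (0.0118) in XRCC4 KO cells. GSDMD was also called in XRCC4 KO cells over the compared libraries alone (adjusted p = 0.0153), and limma on FPKM called AIM2 in both comparisons. Each AIM2 call sets the same 25 and 6 WT counts against 0, and was not repeated without WT library 1. All 3 knockouts were compared with the same WT libraries.

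In the second set CASP1 was called lower in DKO than in XRCC4 KO cells, and was called in neither single knockout against WT. DKO cells were not tested against WT or p53 KO cells. WT cells had 35.0 and 37.5 CPM, p53 KO cells 33.2 and 35.0 CPM (-0.11 ± 0.07, adjusted p = 0.2) and XRCC4 KO cells 38.2 and 38.1 CPM (0.09 ± 0.07, adjusted p = 0.312). On the FPKM scale that last difference turned (-0.58, adjusted p = 0.0377), where the median of all genes was at -0.16. DKO cells had 25.7 and 23.8 CPM, lower than XRCC4 KO cells by -0.63 ± 0.07 (adjusted p = 4.89e-09). On the FPKM scale this was -0.10 (adjusted p = 0.724), where the median of all genes was at 0.29.

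With ATRi, CASP1 rose in DKO cells and not measurably in XRCC4 KO cells. DKO cells with ATRi had 30.9 and 30.4 CPM (0.31 ± 0.07, adjusted p = 0.000568, and 0.112 on the FPKM scale) and XRCC4 KO cells with ATRi 35.6 and 37.9 CPM (-0.07 ± 0.07, adjusted p = 0.571). The effect of ATRi was more positive in DKO cells by 0.375 ± 0.10 (adjusted p = 0.00403). The DKO libraries lay below the XRCC4 KO libraries both without and with ATRi.

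RPE-1 showed the widest CASP1 differences. WT cells had 6.13 and 5.04 CPM, p53 KO cells 18.2 and 19.6 CPM and WT cGAS cells 29.3 and 26.7 CPM, with no overlap among the 3 groups. CASP1 rose by 1.80 ± 0.12 in p53 KO cells (adjusted p = 5.16e-12) and by 2.35 ± 0.12 in WT cGAS cells (adjusted p = 1.45e-14). MB21D1, the cGAS gene, had 6199 and 6158 counts in the WT cGAS cells and 8 and 6 in p53 KO cells, but 2 and 100 in the 2 WT libraries, so WT library 2 stood apart in it. Without that library CASP1 rose by 1.64 (adjusted p = 4.1e-09) and 2.20 (adjusted p = 1.29e-11). IFIT1 stood at 49.4 and 62.5 CPM in WT, 391 and 384 in p53 KO and 1455 and 1209 in WT cGAS cells, in the same order as CASP1, and the part of either gene in the CASP1 values was not tested.

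The genes most like CASP1 over the 13 MCF10A group means were C4orf3 (r = 0.86), the peptide transporter gene TAP2 (0.834), PHF23 (0.827), SNX11 (0.817) and FMO4 (0.816).

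CASP4, a cytosolic sensor of lipopolysaccharide, was the most abundant member in counts and the one with the narrowest range. CASP4 (ENSG00000196954, hg19 chr11:104813593-104840163) ran from 53.9 to 126.5 CPM in MCF10A and from 39.4 to 75.1 CPM in RPE-1. Its group means spanned 1.59 on the log2 CPM scale, close to the 1.72 of GSDMD, against 5.80 for NLRP3 and 3.14 for CASP1. In WT cells it had 126 and 119 CPM untreated, 109 and 96.6 CPM at 3 days and 98.5 and 84.2 CPM at 5 days.

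CASP4 fell by 0.42 ± 0.14 on the log2 scale at 5 days (adjusted p = 0.0403), the opposite direction to CASP1 over the same libraries. That call was lost with any 1 of the 4 libraries left out (adjusted p of 0.068 to 0.22). CDK1i took it further, to 69.7 and 53.9 CPM (-0.61 ± 0.14, adjusted p = 0.0212), and without DMSO library 1 or CDK1i library 2 the adjusted p was 0.15 and 0.139, and over the compared libraries alone 0.169. NLRP1 and CASP4 were the 2 of 7 tested members called with CDK1i, both lower, where 10.7% of all genes were called. GSDMD had an adjusted p of 0.0598 there, 0.0311 with DESeq2 and 0.000803 without the filter, which gave 6 members called.

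p53 KO cells had less CASP4 (78.8 and 77.9 CPM) than WT cells of the second set (106 and 107 CPM), by -0.46 ± 0.05 (adjusted p = 1.6e-09). DKO cells, at 95.5 and 96.8 CPM, differed by -0.16 ± 0.05 from XRCC4 KO cells at 103 and 111 CPM (adjusted p = 0.00462). That small difference turned on the FPKM scale (0.10, adjusted p = 0.293), where the median of all genes was at 0.29, and without XRCC4 KO library 2 its adjusted p was 0.0973. ATRi raised CASP4 to 118 and 120 CPM in XRCC4 KO cells (0.14 ± 0.05, adjusted p = 0.0424; lost with DESeq2, adjusted p = 0.22) and to 108 and 112 CPM in DKO cells (0.19 ± 0.05, adjusted p = 0.000658). In RPE-1 it was higher than in WT cells (39.4 and 42.1 CPM) both in p53 KO cells at 72.3 and 74.5 CPM (0.89 ± 0.06, adjusted p = 7.32e-12) and in WT cGAS cells at 75.1 and 69.0 CPM (0.84 ± 0.06, adjusted p = 2.72e-11). The p53 KO cells of the 2 lines thus differed from their WT cells in opposite directions, with ATRi in RPE-1 and without it in MCF10A, and this contrast between the lines was not tested.

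CASP5, the close relative of CASP4, was hardly read. CASP5 (ENSG00000137757, hg19 chr11:104864962-104893895) had 63 counts over the 32 libraries and at most 9 in one, in DKO cells with ATRi (7 and 9 counts, against 2 and 1 without). It did not pass the filter on low counts in any set, and without the filter it was called in no comparison (0.0801 for ATRi in DKO cells). Of its transcript's 50-base windows, 10 (0.576%) also occur in CASP4, which had 44885 counts, so the few CASP5 counts are uncertain.

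CARD16, a short CARD-only gene next to CASP1 whose product binds caspase-1, followed CASP1 in the first set. CARD16 (ENSG00000204397, hg19 chr11:104912053-104972158) had 14 and 27 counts untreated, 45 and 18 at 3 days and 112 and 60 at 5 days. As CPM these were 1.05 and 2.75, 2.80 and 3.10, and 7.79 and 3.64, so the 5 day libraries lie above the others and far from each other. The rise at 5 days was 1.61 ± 0.49 (adjusted p = 0.0323). It was lost without untreated library 1 (1.03, adjusted p = 0.175) or irradiated library 1 (0.95, adjusted p = 0.268).

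In cGAS KO cells CARD16 had 1.66 and 1.59 CPM, a fall by 1.82 ± 0.49 on the log2 scale (adjusted p = 0.0351), lost without WT library 1 (adjusted p = 0.246). STING KO cells had 2.92 and 1.99 CPM (-1.22 ± 0.47, adjusted p = 0.115) and XRCC4 KO cells 1.95 and 2.79 CPM (-1.28 ± 0.48, adjusted p = 0.0745). All 6 of these knockout libraries lie below both WT libraries at 5 days.

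The second set also had lower CARD16 in XRCC4 KO cells, at 2.60 and 2.79 CPM against 5.32 and 4.53 CPM in WT cells (-0.85 ± 0.21, adjusted p = 0.000732). DKO cells had 2.66 and 2.93 CPM (0.05 ± 0.22 against XRCC4 KO, adjusted p = 0.853) and rose to 5.79 and 4.67 CPM with ATRi (0.89 ± 0.19, adjusted p = 0.000187). XRCC4 KO cells with ATRi had 3.22 and 3.41 CPM (0.285 ± 0.22, adjusted p = 0.424), and the 2 effects of ATRi differed by 0.61 ± 0.30 (adjusted p = 0.112). In RPE-1, WT cells had 0 counts in both libraries, p53 KO cells 6 and 7 (at least 3.2-fold higher) and WT cGAS cells 5 and 10 (at least 4.07-fold higher, or 2.68-fold without library 2).

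CARD16 shares sequence with its neighbours, so its counts are uncertain. Of its transcript's 50-base windows, 10.6% also occur in CASP1, and 1 exon overlaps CARD17, another CARD-only gene. CARD17 moved the same way in the first set, with 2 and 4 counts untreated and 78 and 39 at 5 days. Of the CASP1 windows, 4.37% occur in CARD16.

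GSDMD, whose product forms the pyroptotic pore, did not pass the threshold after IR. GSDMD (ENSG00000104518, hg19 chr8:144635377-144645232) had 13.02 and 17.33 CPM untreated, 13.01 and 11.54 CPM at 3 days and 21.8 and 16.7 CPM at 5 days. Both 3 day libraries lie just below both untreated libraries, and the 5 day libraries overlap the untreated ones (-0.285 ± 0.325, adjusted p = 0.636, and 0.35 ± 0.32, adjusted p = 0.441). With CDK1i its libraries lay apart, at 5.98 and 13.2 CPM (-1.05 ± 0.32, adjusted p = 0.0598).

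XRCC4 KO cells had more GSDMD at 3 days. They stood at 22.2 and 24.2 CPM against 12.6 and 12.4 CPM in WT cells (0.90 ± 0.09, adjusted p = 1.3e-10). At 5 days, in the first set, the XRCC4 KO difference had the other sign, at 11.4 and 9.68 CPM against 21.8 and 16.7 CPM (-0.89 ± 0.32, adjusted p = 0.0689). The times and sets differ, and the difference between them was not tested. p53 KO cells stood at 17.3 and 16.8 CPM (0.425 ± 0.09, adjusted p = 0.000166), and DKO cells at 20.9 and 20.9 CPM (-0.16 ± 0.08 against XRCC4 KO, adjusted p = 0.0854).

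ATRi moved GSDMD in opposite directions. It lowered it in XRCC4 KO cells to 17.5 and 18.1 CPM (-0.40 ± 0.08, adjusted p = 0.00063) and raised it in DKO cells to 25.1 and 25.1 CPM (0.26 ± 0.075, adjusted p = 0.00355). DESeq2 did not call the rise (adjusted p = 0.0856). On log2(FPKM + 0.1) the rise was 0.033 (adjusted p = 0.949) and the fall -0.64 (adjusted p = 0.142). The effect was more positive in DKO cells by 0.66 ± 0.11 (adjusted p = 1.84e-05). On log2(FPKM + 0.1) none of the 3 differences in ATRi effect was called, although the signs held (NLRP3 -0.40, CASP1 0.23, GSDMD 0.68). In RPE-1, WT cGAS cells had 29.6 and 29.7 CPM against 21.0 and 24.4 CPM in WT cells (0.40 ± 0.09, adjusted p = 0.000344) and p53 KO cells 22.5 and 20.2 CPM (-0.05 ± 0.09, adjusted p = 0.629).

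**Figure D2:**
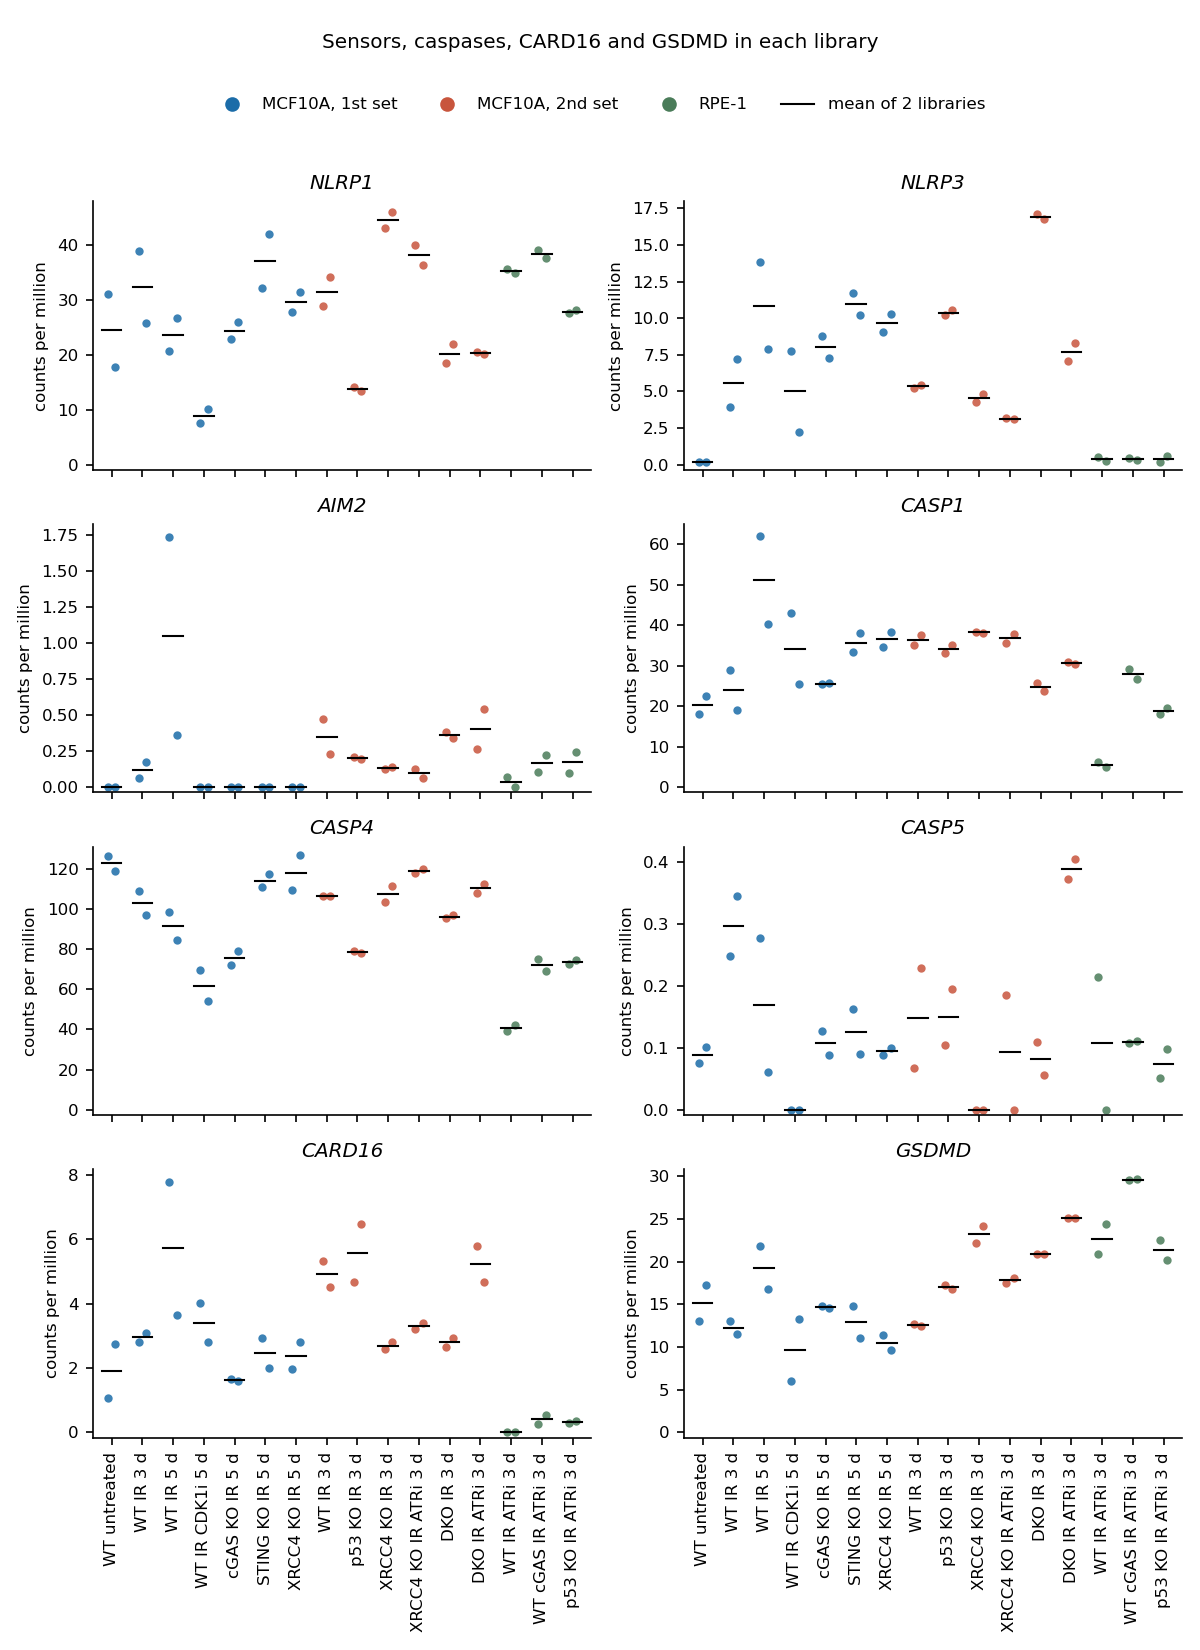
CPM (vertical axis) of the 3 sensors, 3 caspases, CARD16 and GSDMD in each library (points) of the 16 groups (horizontal axis), with the mean of 2 libraries as a line and 1 vertical scale per gene. NLRP3 peaks at 17.1 in DKO cells, CASP1 at 62.1 in WT cells 5 days after IR, and AIM2 reads 0 in 10 MCF10A libraries.

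Counted over the members, the second set gave more calls, against a higher background. In p53 KO cells 4 of 6 tested members were called (NLRP3 and GSDMD higher, NLRP1 and CASP4 lower), with 52.7% of all genes called. XRCC4 KO cells gave 3 of 6 (NLRP1 and GSDMD higher, CARD16 lower) with 56.5% of all genes. The comparison of DKO with XRCC4 KO cells gave 4 of 6 (NLRP3 higher, NLRP1, CASP1 and CASP4 lower) with 65% of all genes. These shares are near the background.

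With ATRi, XRCC4 KO cells gave 4 of 6 tested members (CASP4 higher, NLRP1, NLRP3 and GSDMD lower) where 17.9% of all genes were called. That count was 1 with DESeq2, 0 with limma on FPKM and 1 or 2 with any library left out. DKO cells gave 5 of 6 (CASP1, CASP4, CARD16 and GSDMD higher, NLRP3 lower) with 57.3% of all genes, and the difference between both ATRi effects gave 3 of 6 with 34.6%. IFIT1 rose with ATRi in both genotypes, by 2.65 ± 0.47 in XRCC4 KO cells and 6.26 ± 0.22 in DKO cells.

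**Figure D3:**
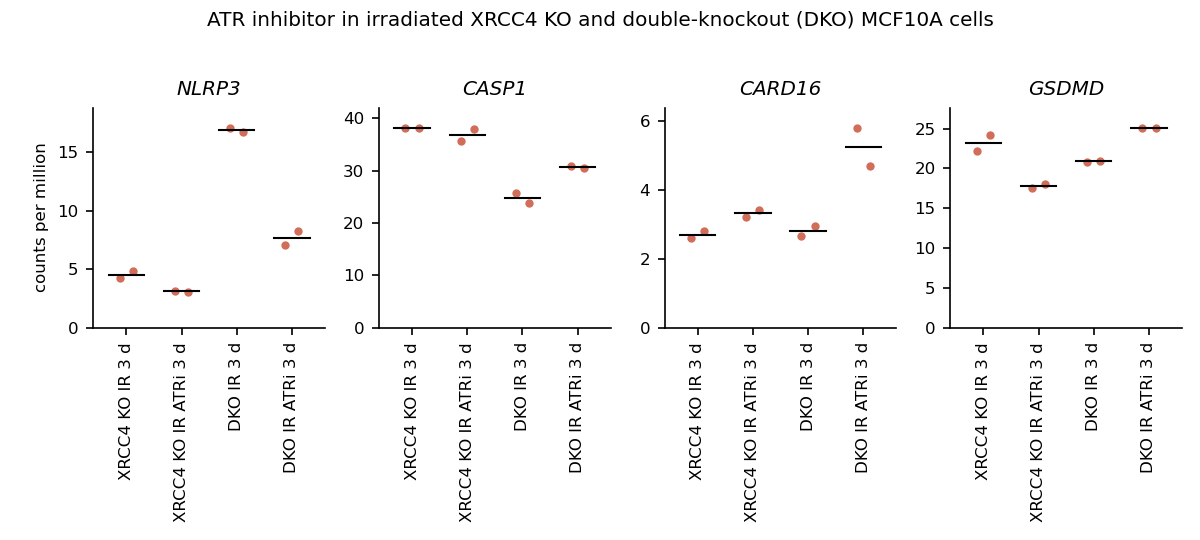
CPM (vertical axis, from 0) of NLRP3, CASP1, CARD16 and GSDMD in XRCC4 KO and DKO cells 3 days after IR, without and with ATRi (horizontal axis), as 2 libraries per group (points) and their mean (line). NLRP3 falls from 16.9 to 7.67 in DKO cells, where the means of the other 3 genes are higher with ATRi.

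In RPE-1, 4 of the 9 members passed the filter. Of these, 3 were called in p53 KO cells (CASP1 and CASP4 higher, NLRP1 lower) with 66.9% of all genes called. In WT cGAS cells CASP1, CASP4 and GSDMD were higher, again 3 of 4, with 60.2% of all genes called. The median log2 fold change of the 4 tested members was 0.42 in p53 KO and 0.62 in WT cGAS cells, beside 0.03 and 0.02 over all tested genes. The same calls were made without WT library 2.

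Medians over the tested members in the first set were 0.43 at 3 days and 0.815 at 5 days after IR, beside -0.0021 and 0.004 over all tested genes. With CDK1i the members' median was -0.82, beside -0.04 over all genes. Each of these member medians is the value of 1 gene that was not called: NLRP1 at 3 days, and PYCARD at 5 days and with CDK1i. In cGAS, STING and XRCC4 KO cells the medians of the 6 tested members were -0.43, -0.26 and -0.35. Over all genes they were -0.02, -0.01 and -0.03. A shift of the members as a set was not tested. The members that passed the filter are those with enough counts, so these medians describe them and not all 9.

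**Figure D4:**
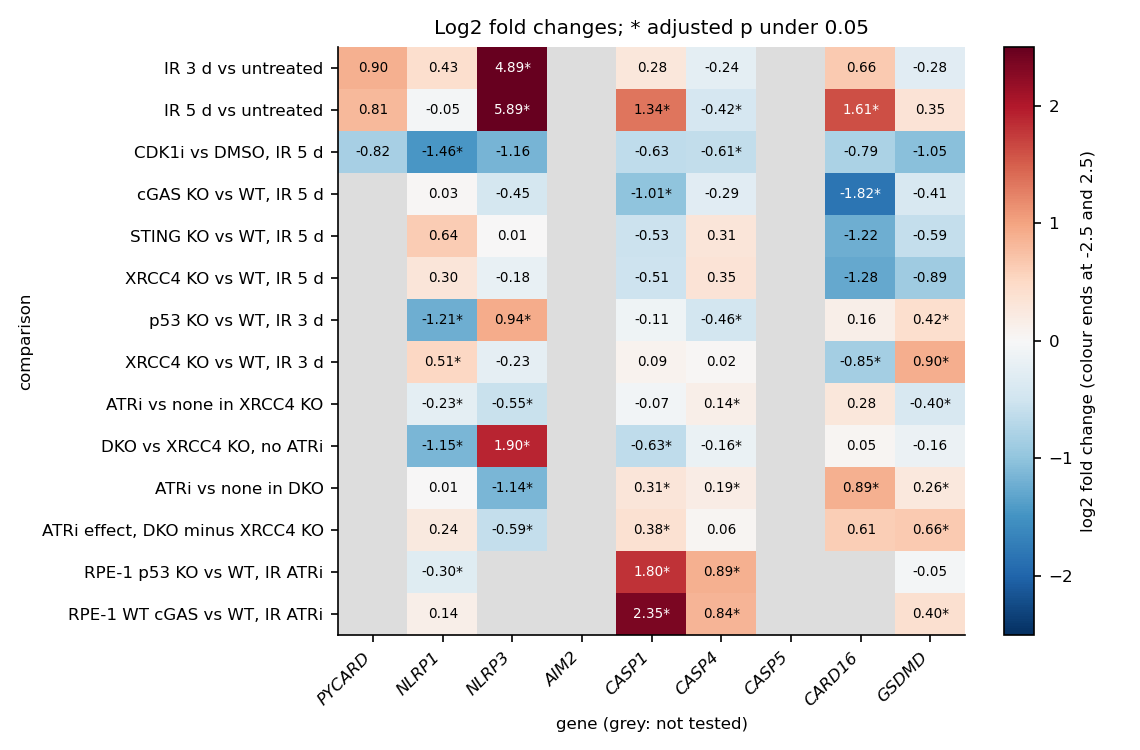
Log2 fold changes of the 9 genes (horizontal axis) in 14 comparisons (vertical axis), in colour and as numbers, with a star for an adjusted p under 0.05 and grey where a gene was not tested. NLRP3 has the largest rise, 5.89 at 5 days after IR, and CASP1 the largest in RPE-1, 2.35.

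Per length, the members ranked differently in the 2 lines. Levels of different genes are compared here as deposited FPKM, which divide by gene length. In MCF10A the medians over 26 libraries were 85.9 for CASP4, 50.3 for CASP1, 16.1 for GSDMD, 8.48 for CARD16, 5.84 for NLRP1, 2.29 for NLRP3 and at most 0.161 for AIM2 and CASP5. In RPE-1 the medians over 6 libraries were 68.3 for CASP4, 34.6 for CASP1, 25.1 for GSDMD, 14 for NLRP1, 0.779 for CARD16, 0.244 for AIM2, 0.199 for CASP5 and 0.165 for NLRP3.

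NLRP1 did not overlap between the lines on this scale, at 1.78 to 10.5 FPKM in MCF10A and 13.1 to 15.1 FPKM in RPE-1. That separation was absent in CPM, where RPE-1 (27.5 to 39.0) lay within the MCF10A range (7.62 to 45.9). NLRP3 in RPE-1 (0.095 to 0.211 FPKM) was below every irradiated MCF10A library, the lowest of which had 0.686 FPKM. CASP1 and CASP4 overlapped between the lines. RPE-1 was measured with IR and ATRi together, in a separate experiment, so line, drug and experiment cannot be told apart, and none of this was tested.

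**Figure D5:**
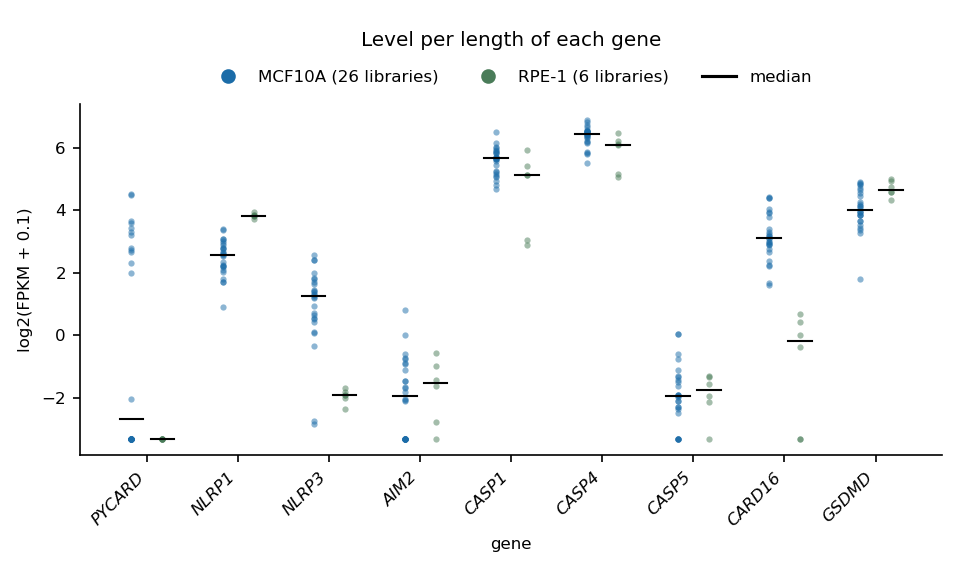
Level per length of the 9 genes (horizontal axis) as log2(FPKM + 0.1) (vertical axis) in each MCF10A and RPE-1 library (points), with the median as a line. By median CASP4 and CASP1 are highest in both lines. CARD16 is lower in each RPE-1 library than in any MCF10A library, and PYCARD has 0 FPKM in RPE-1, the bottom of the scale.

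The other genes of the pathway were taken from lists of sensors, regulators, caspases, gasdermins and cytokines, of which 44 are in the table; the named ones follow a rule on the size of the change. Of 33 tested in the first set, 4 were higher and 0 lower at 3 days after IR, where 6.4% of all tested genes were called, and 15 higher and 1 lower at 5 days, where 27.9% were. PYHIN1, a DNA-binding relative of AIM2, had 1 and 0 counts untreated and 23 and 5 at 3 days, and the skin gasdermin GSDMA had 4 and 0 against 31 and 10. At 5 days CARD18, a CARD-only inhibitor of caspase-1, had 26 and 24 counts and NLRP10 8 and 6, against 0 in both untreated libraries. The gasdermin GSDMB was the 1 gene lower (-1.26 ± 0.36, adjusted p = 0.0263).

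CDK1i gave 0 higher and 12 lower of 33, with 10.7% of all genes called. Among them GBP5, a guanylate-binding protein that promotes NLRP3 assembly, had 7 and 1 counts against 114 and 139 with DMSO (-4.91 ± 0.59, adjusted p = 0.00286). GSDMA was lower by -4.33 ± 0.60 (adjusted p = 0.00512). At 5 days cGAS KO cells had 1 higher and 6 lower, STING KO cells 3 and 5, and XRCC4 KO cells 2 and 8, with 12.5%, 14.2% and 24% of all genes called.

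IL18, which encodes a cytokine that caspase-1 matures, was higher in all 3 knockouts of the first set at 5 days. Its levels differed from WT by 0.95 ± 0.14 in cGAS KO (adjusted p = 0.00256), 0.81 ± 0.14 in STING KO (adjusted p = 0.00457) and 1.40 ± 0.14 in XRCC4 KO cells (adjusted p = 0.000327). GBP5 was lower in each of them, with 14 and 9, 9 and 7, and 2 and 0 counts. The alarmin gene IL33 fell by 4.13 ± 1.04 on the log2 scale in cGAS KO (adjusted p = 0.0316) and by 5.04 ± 1.17 in XRCC4 KO cells (adjusted p = 0.0139), against WT libraries that held 70 and 385 counts. In STING KO cells the sensor gene NOD2 was lower (-3.24 ± 0.66, adjusted p = 0.0103) and NLRP10 higher (2.755 ± 0.64, adjusted p = 0.0207), and the protease gene DPP9, whose product restrains NLRP1, was higher in XRCC4 KO cells (0.525 ± 0.17, adjusted p = 0.0464). These comparisons share their WT libraries.

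In the second set 34 listed genes were tested. In p53 KO cells 12 were higher and 14 lower, in XRCC4 KO cells 9 and 13, and in DKO against XRCC4 KO cells 15 and 14. The shares over all genes were 52.7%, 56.5% and 65%. IL1B, whose product is the best known substrate of caspase-1, had 15200 and 17818 counts in WT cells and 2045 and 1916 in XRCC4 KO cells (-2.96 ± 0.045, adjusted p = 9.08e-32). In DKO cells it had 16206 and 14492 counts. In the first set WT cells at 3 days had 1432 and 731 counts of IL1B, so the 2 sets differ widely in WT cells with nearly the same label. IL1RN, the interleukin-1 receptor antagonist gene, was higher in XRCC4 KO cells (1.04 ± 0.12, adjusted p = 4.71e-09), and NLRP10 was higher (1.59 ± 0.56, adjusted p = 0.0152). GBP5 had 1 and 0 counts there against 18 and 25 in WT cells.

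PYHIN1 followed p53, with 40 and 69 counts in WT, 2 and 1 in p53 KO, 47 and 61 in XRCC4 KO and 1 and 2 in DKO cells. CARD18 had 23 and 38, 4 and 1, 35 and 29, and 0 and 0 counts in the same groups. IL33 was higher in p53 KO cells (1.40 ± 0.18, adjusted p = 7.73e-08). IL37, an anti-inflammatory cytokine gene, had 0 and 1 counts in WT, 4 and 5 in p53 KO, 0 and 0 in XRCC4 KO and 15 and 11 in DKO cells.

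ATRi gave 5 higher and 5 lower in XRCC4 KO cells and 10 higher and 11 lower in DKO cells, of 34, with 17.9% and 57.3% of all genes called. GBP5 went from 11 and 14 to 295 and 283 counts in DKO cells (4.34 ± 0.22, adjusted p = 3.06e-17), and IL33 was higher in XRCC4 KO (1.545 ± 0.34, adjusted p = 0.00135) and lower in DKO cells (-1.94 ± 0.27, adjusted p = 3.11e-07). In XRCC4 KO cells CARD17 was higher (1.16 ± 0.35, adjusted p = 0.0207), and DFNA5, the gene of gasdermin E, and IL18 were lower (-0.285 ± 0.05, adjusted p = 0.000134, and -0.285 ± 0.04, adjusted p = 1.99e-06). In DKO cells NLRP10 was higher (1.63 ± 0.54, adjusted p = 0.0103) and IL37 lower (-1.685 ± 0.57, adjusted p = 0.0125). The effect of ATRi was more positive in DKO cells for 5 listed genes and more negative for 10 (34.6% of all genes called), with the DNA sensor gene IFI16 (0.52 ± 0.07, adjusted p = 5.94e-07) and CARD8 (0.36 ± 0.13, adjusted p = 0.0305) among the former and IL33 (-3.48 ± 0.44, adjusted p = 1.46e-07) among the latter.

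In RPE-1, 28 listed genes were tested, of which 9 were higher and 8 lower in p53 KO cells and 16 higher and 4 lower in WT cGAS cells. Over all genes 66.9% and 60.2% were called, so the numbers called lie near the background. Of all called genes, 51.3% and 49.9% were higher. The split of 16 and 4 in WT cGAS cells is more one-sided than that, which was not tested. All 7 tested genes of the cytokine list were higher in WT cGAS cells, among them IL33 (4.935 ± 0.125, adjusted p = 4.85e-18). GBP5 had 6 and 4 counts in WT, 32 and 48 in p53 KO and 422 and 314 in WT cGAS cells. IL1RN was higher in p53 KO cells (3.52 ± 0.14, adjusted p = 2.39e-16), where PYHIN1 fell from 8 and 6 to 2 and 0 counts. The kinase gene NEK7, whose product binds NLRP3, was lower in p53 KO (-1.20 ± 0.05, adjusted p = 3.61e-14) and WT cGAS cells (-0.89 ± 0.05, adjusted p = 4.24e-12), as was NLRP10 in the latter (-1.59 ± 0.37, adjusted p = 0.000614). IL18 had 0 to 8 counts per library in RPE-1, against 987 to 5744 in MCF10A. In bulk RNA, fewer cells that express a gene and less of its RNA per cell cannot be told apart, for this and every level given here.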

How the data were processed

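Poly-A RNA of 32 libraries was sequenced, and per the submitters' processing notes bcl2fastq, FastQC, STAR, Cuffnorm and DESeq2 were used with genome build hg19; versions and the use of strand are not given in the sources used here. The authors deposited estimated counts per gene, of which 96.04 to 97.28% per library were whole numbers, and FPKM values. The estimated counts, 5590061 to 18585999 per library, were rounded and fitted with edgeR 4.0.16 (R 4.3.3; TMM factors, filterByExpr by group, robust quasi-likelihood test, Benjamini-Hochberg adjustment over all genes, threshold 0.05) in each of the 3 sets with all of its groups (15190, 16632 and 15469 genes tested). The standard error is the fold change divided by the root of F. CPM used TMM over all libraries. Deposited FPKM served to compare genes per length.

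The test was run on simulated data first. Alternatives were DESeq2 1.42.0, RLE factors, no filter on low counts, a replicate block, the compared libraries alone, limma 3.58.1 on log2(FPKM + 0.1) for genes of at least 0.1 FPKM in at least 2 libraries, and leaving out each library. With 2 libraries per group no exact test of a single value can reach 0.05. The floor for a group at 0 was 3 counts over the group, and intervals are 95% for counting error only. Members, lists and alternatives were chosen with earlier results of these data known. Named were all 9 members and, from the pathway lists, up to 2 called genes per direction and comparison with the largest changes. Genes most like PYCARD, CASP1 and NLRP3, 5 each, were ranked by Pearson's r of log2 CPM (prior count 2) over group means. Levels of 1 targeted gene are not reported here.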

Additional observations from a re-analysis of the deposited data

Results flagged for a closer look

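The effect of ATRi differed between DKO and XRCC4 KO cells for 3 of 6 tested members, by the interaction term of edgeR's quasi-likelihood fit. Of all tested genes 34.6% were called in the same comparison, and DESeq2 called 2 members. NLRP3 fell further in DKO cells, by -0.589 on the log2 scale, with both DKO libraries lower with ATRi than without. CASP1 differed by 0.375, and GSDMD by 0.658, its direction being opposite in the 2 genotypes. The NLRP3 difference lost its call without any 1 of 5 libraries in turn (adjusted p of 0.0633 to 0.124), and no difference among the 3 was called on the FPKM scale.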

How the results depend on the processing

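With 2 libraries per group, the noise of the WT and STING KO groups of the first set limits what its comparisons can show, and low counts limit AIM2, CASP5 and, in RPE-1, NLRP3 and CARD16. Deviations of same-numbered libraries correlated at only -0.0493 to 0.0623 in the second set and -0.0229 to 0.0295 in RPE-1. In the first set they correlated at -0.265 to 0.439, with 7 of 21 pairs of groups over 0.1. A shared effect of the replicate number may thus be present in some groups of the first set. With the replicate block all 83 of 83 member values kept direction and call. The same held for 77 of 83 values with DESeq2, 82 with RLE factors, 71 without the filter, 72 over the compared libraries alone, 58 with limma on FPKM, and 299 of 356 with 1 library left out. Beside these, 1 value without the filter, 6 with limma on FPKM and 17 with 1 library left out changed sign and were called in neither fit.

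In 3 cases a value called in 1 of both fits reversed with limma on FPKM, where the cause was not tested: CASP1 in XRCC4 KO cells at 3 days (-0.578), CASP4 in DKO against XRCC4 KO cells (0.096) and NLRP1 in RPE-1 p53 KO cells (0.095). The number of members called moved as follows. Over the compared libraries alone it was 0 at 3 days after IR, 1 at 5 days, 0 with CDK1i, 1 in XRCC4 KO cells at 5 days and 2 for ATRi in XRCC4 KO cells. Without the filter, which adds genes, it was 6 with CDK1i, 4 in STING KO and 4 in XRCC4 KO cells at 5 days. With limma on FPKM it was 1 in cGAS KO, 1 in STING KO and 1 in XRCC4 KO cells at 5 days, 0 for ATRi in XRCC4 KO cells, 2 for DKO against XRCC4 KO, 3 for ATRi in DKO cells, 0 for the difference in ATRi effect and 5 for RPE-1 WT cGAS cells. DESeq2 called 1 for ATRi in XRCC4 KO cells.

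With 1 library left out the number of members called ranged from 0 to 1 at 3 days, 1 to 3 at 5 days, 1 to 3 with CDK1i, 0 to 2 in cGAS KO, 0 to 0 in STING KO and 0 to 1 in XRCC4 KO cells at 5 days. It ranged from 4 to 4 in p53 KO, 3 to 3 in XRCC4 KO cells at 3 days, 1 to 2 for ATRi in XRCC4 KO, 3 to 4 for DKO against XRCC4 KO, 5 to 5 for ATRi in DKO, 2 to 4 for the difference, and 3 to 3 in both RPE-1 comparisons.

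Over all genes, leaving out 1 library took the calls from 972 to 142 at the lowest at 3 days, from 4236 to 1451 at 5 days, from 1623 to 284 with CDK1i, from 1904 to 306 in cGAS KO, from 2155 to 902 in STING KO and from 3653 to 1358 in XRCC4 KO cells. The compared libraries alone gave 1 call at 3 days, 1090 at 5 days and 0 with CDK1i, and DESeq2 gave 1651 in place of 2984 for ATRi in XRCC4 KO cells and 3690 in place of 5752 for the difference. On the FPKM scale the share of calls that were higher moved from 49.7% to 73% in DKO against XRCC4 KO cells, from 51.3% to 78.3% in RPE-1 p53 KO cells and from 49.5% to 18.2% in XRCC4 KO cells at 5 days. With CDK1i it was 39.9%, and 50.9% with DESeq2. The bounds on AIM2 in the report without library 1 of WT cells at 5 days, and on CARD16 without library 2 of RPE-1 WT cGAS cells, were added after seeing the data.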
